A study of Oryctolagus cuniculus with 30 samples.

Results

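Injured rabbit vocal folds that had received an injection of type I collagen were compared with injured folds that had received none. The comparison takes every library whose title names Col1 and every library whose title names injury only, which gives 12 of the 30 libraries of the study and 6 of its 15 animals. Each side holds 3 New Zealand white rabbits with 2 folds each, and the reads of both folds of an animal were added together. In both groups, called Col1 and injury_only here, the superficial mucosa had been stripped from both folds. The Col1 animals then had 20 µL of collagen type I injected into each fold 7 days after the injury, and mucosa was collected 28 days after treatment. The day from which the 28 days run in injury_only is not stated in the sources used here. Since injury_only received no injection, the collagen and the act of injecting cannot be told apart in this comparison. Both other injected groups of the study, labelled VFLP (man) and VFLP (au) and written VFLP_man and VFLP_au, had the same injury, volume and times, and served below as a comparison within 1 library batch. Uninjured, uninjected control animals are given for reference.

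The vocal fold is a stratified squamous epithelium over a layered connective tissue, the lamina propria, with the thyroarytenoid muscle beneath it. The pliability of the lamina propria rests on its mix of collagens, elastin, hyaluronan and proteoglycans, which fibroblasts make and remodel. After a wound, fibroblasts can lay down dense fibrillar collagen and fibronectin in place of this mix, and the fold stiffens into a scar. Type I collagen is the main fibrillar collagen of scar and skin. As an injected material it serves as a bulking scaffold that cells bind through integrins and discoidin domain receptors and break down through collagenases and cathepsins. Messenger RNA counts read what the cells of the fold transcribed, and the injected protein itself is not counted.

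Libraries held 18.1 to 31.9 M gene reads in Col1 and 19.4 to 23.7 M in injury_only, and the sums per animal were 42.5 to 50.1 and 41.7 to 47 M. All 6 Col1 libraries carry the batch letter D in the labels. Of the injury_only libraries, 5 carry C and only the right fold of animal 1 carries D, so batch and treatment can be told apart through that single library alone, and its value is given beside the results as the batch D fold. Epithelial and connective tissue markers were found in every library of both groups, and keratin 5 (KRT5) stood at 1060 to 2270 CPM (a gene's reads relative to all gene reads of its library, as TMM-scaled counts per M reads) in Col1 and at 524 to 1570 CPM in injury_only. Skeletal muscle genes took 0.298 to 0.822% of the gene reads in the 3 Col1 animals and 0.975 to 2.2% in the 3 injury_only animals, so the groups also differed in how much muscle RNA they held. The part of this muscle difference in the results below was tested only by adding the muscle level as a covariate, and the medians that moved most with it are given after the gene lists.

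No single gene passed the threshold between the groups. The edgeR quasi-likelihood test, with Benjamini-Hochberg adjustment, called 0 of 17770 genes (0%) at an adjusted p of 0.05, while 2530 genes (14.2%) had an unadjusted p under 0.05, 1279 of them higher in Col1 (7.2%) and 1251 lower (7.04%). DESeq2 called 380 genes (2.14%), 170 higher and 210 lower, and limma voom with the animal as a block called 3 (0.0182%), AGAP3, TMEM107 and STX16, all higher in Col1. In 2156 genes (12.1% of those tested) every Col1 animal lay above every injury_only animal, and in 1915 genes (10.8%) every Col1 animal lay below. These shares are the background for the counts of members that follow. There a gene is said not to overlap when its 3 Col1 animals all lie beyond its 3 injury_only animals. The gene lists were chosen with earlier results of these data known, so these counts describe a list and do not test it. Against the batch D fold, 95.9% of the 2156 higher genes and 85.7% of the 1915 lower genes had the same sign. That fold is part of the sum of injury_only animal 1, which entered the picking of these genes. Agreement with it, here and for genes named below, is thus partly set by the picking and does not separate batch from treatment. In 1313 of the higher genes (60.9%) and 1115 of the lower ones (58.2%) all 6 Col1 libraries lay beyond that fold, against 19.4% and 17.4% of all genes tested. Without the batch D fold 12.7% of the genes were higher and 13.2% lower without overlap, in left folds alone 7.94% and 6.84%, and in right folds alone 8.52% and 5.31%. Since no gene passed in the edgeR test, genes are given below with their values and not as changes.

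The genes with the smallest p on the higher side, picked among those without overlap, were 1.32- to 2.83-fold apart. AGAP3, a GTPase-activating protein for ARF-type GTPases, stood at 18.2, 18.1 and 22.2 CPM in the 3 Col1 animals and at 10.8, 10.8 and 9.83 CPM in the injury_only animals (log2 fold change 0.90, SE 0.16, adjusted p = 0.27 in edgeR and 0.00021 in DESeq2). CASTOR1, the cytosolic arginine sensor that acts on the growth kinase complex mTORC1, stood at 35.8, 32 and 45.2 CPM against 19, 18.6 and 19 CPM (log2 1.00, SE 0.19, adjusted p = 0.27). For both genes the lowest Col1 fold, at 16.4 and 28.3 CPM, lay above the highest injury_only fold, at 12.3 and 22.4 CPM. SLC34A3, a sodium-coupled phosphate transporter, stood at 3.5, 3.41 and 5.24 CPM against 1.3, 1.41 and 1.57 CPM (log2 1.5). MCC, a gene mutated in colorectal cancers, stood at 45.6, 32.1 and 53.9 CPM against 17.8, 19.4 and 25.7 CPM (log2 1.06), and GRAMD4 at 205, 159 and 236 CPM against 97.8, 107 and 114 CPM (log2 0.91). The other 3 were smaller differences: EGLN2, a prolyl hydroxylase of the oxygen-sensing pathway, at log2 0.40, GMEB2, a factor that binds glucocorticoid modulatory elements, at 0.57, and the class IIa histone deacetylase HDAC5 at 0.51, each with an adjusted p of 0.27. In all 8 genes the 6 Col1 libraries lay above the batch D fold. In 7 of the 8 the VFLP_man and VFLP_au means lay nearer to Col1 than to injury_only, as with CASTOR1 at 31 ± 8.59 and 32.3 ± 3.32 CPM (SD, n = 3 animals each) beside 37.7 ± 6.76 CPM in Col1 and 18.8 ± 0.207 CPM in injury_only. AGAP3 was the exception in VFLP_man, at 13 ± 1.76 CPM beside 19.5 ± 2.35 CPM in Col1. The injected groups all lie in batch D and injury_only mostly in batch C, so injection and batch cannot be told apart here.

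**Figure D1:**
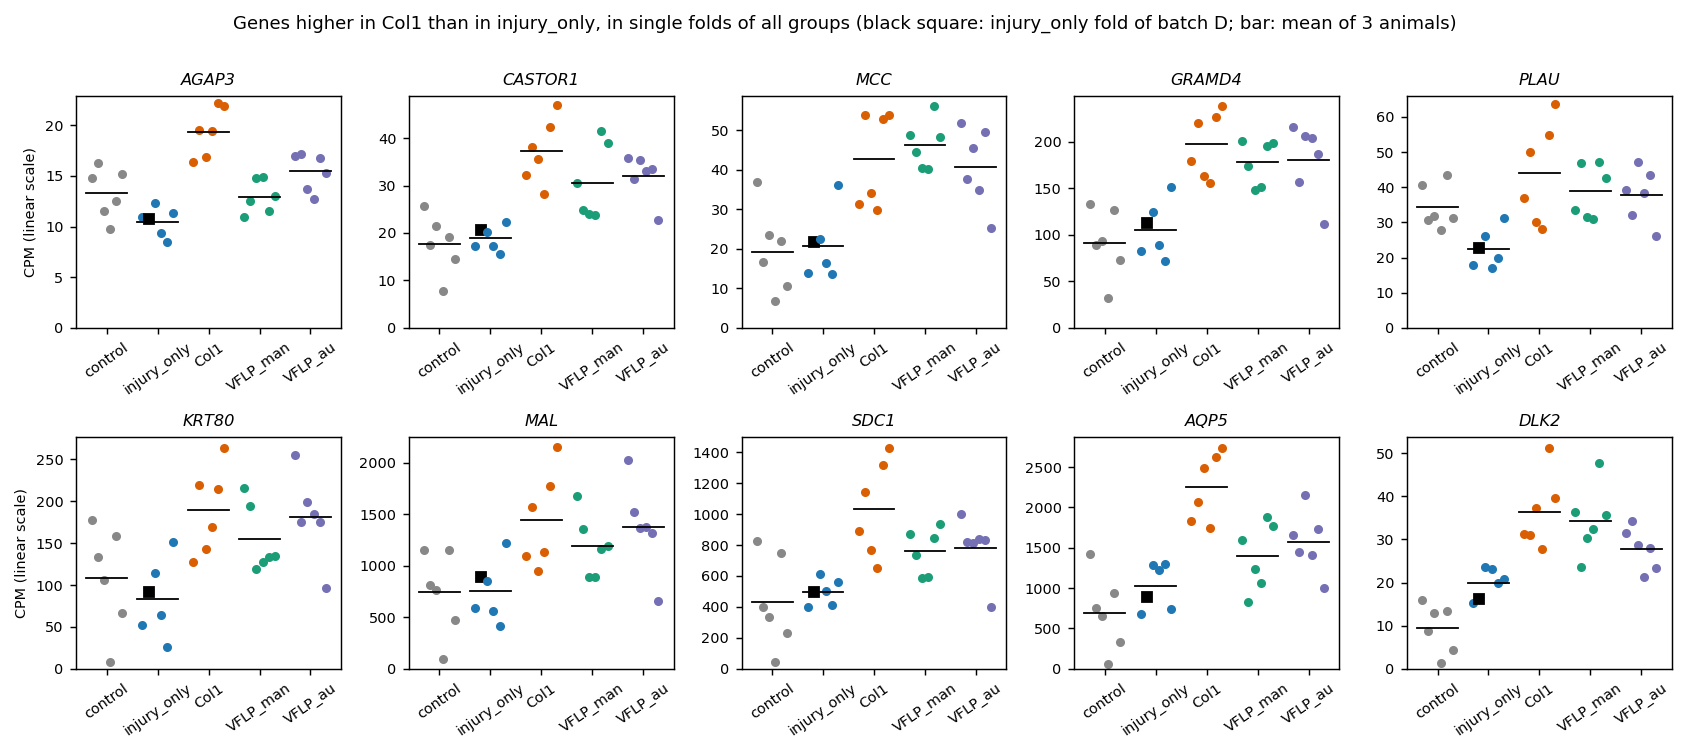
CPM (linear axes from 0) of 10 genes that were higher in Col1 than in injury_only, in every fold of the 5 groups; points are single folds, bars are means over 3 animals of the mean of both folds, and the black square is the injury_only fold of batch D. The 6 Col1 folds lie above the black square in each of the 10 panels, and the VFLP_man and VFLP_au folds overlap those of Col1 in most panels.

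The 8 genes with the smallest p on the lower side were of several kinds. HMCN2, the extracellular matrix protein hemicentin 2, stood at 0.7, 0.794 and 0.89 CPM in Col1 and at 2.37, 3.35 and 3.52 CPM in injury_only (log2 -1.95, SE 0.34, adjusted p = 0.27). CTSK, the cathepsin that cleaves triple-helical collagen, stood at 24.6, 26.1 and 32.7 CPM against 54.1, 68.4 and 43.9 CPM (log2 -1, SE 0.18, adjusted p = 0.27). LRP1, an endocytic receptor that clears proteases and matrix proteins, stood at 23.5, 21.1 and 28.6 CPM against 38, 49.8 and 40.3 CPM (log2 -0.80). In these 3 genes 5 of 6 Col1 libraries lay below the batch D fold, which held 1.08 CPM of HMCN2, 44.7 CPM of CTSK and 34.9 CPM of LRP1. THBS4, a thrombospondin of tendon and muscle matrix, stood at 1.12, 0.794 and 1.03 CPM against 2.29, 7.4 and 4.27 CPM. ITGA4, the alpha 4 integrin subunit of leukocytes, stood at 1.32, 1.71 and 1.07 CPM against 7.54, 6.25 and 3.05 CPM (log2 -2.04), and GRAP2, an adaptor of T cell receptor signalling, at 1.21, 0.433 and 1.03 CPM against 7.02, 5.61 and 11.8 CPM (log2 -3.18). GRAP2 was highest in the uninjured control animals, at 27.5 ± 22.3 CPM. NCAM1, a neural and muscle cell adhesion molecule, stood at 8.28, 7.43 and 7.12 CPM against 17.3, 39.9 and 37.5 CPM, and the cytochrome CYP2J1 at 35.7, 35.7 and 36.9 CPM against 77, 55.2 and 53.3 CPM. All 6 Col1 libraries lay below the batch D fold in ITGA4, GRAP2, THBS4 and CYP2J1, and 5 of 6 in the other 4.

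Fibrillar collagens are the class of the injected protein, and most of their transcripts lay on the lower side in Col1, none past the test. Of 9 members tested, 8 had a log2 fold change below 0, 4 (44.4%) did not overlap on the lower side and 1 (11.1%) on the higher side, beside backgrounds of 10.8% and 12.1%. COL1A1 and COL1A2 encode both chains of type I collagen itself. COL1A2 stood at 97.6, 44 and 113 CPM in Col1 and at 183, 260 and 155 CPM in injury_only (log2 -1.23, SE 0.42, adjusted p = 0.29), and COL1A1 at 59.6, 30.5 and 69.5 CPM against 109, 164 and 107 CPM (log2 -1.25, SE 0.51, adjusted p = 0.32). COL3A1, the chain of type III collagen that is prominent in early repair, stood at 135, 88.7 and 200 CPM against 303, 361 and 202 CPM (log2 -1.03, adjusted p = 0.32), a gap of only 2 CPM between the nearest animals. The other 2 that did not overlap were COL5A3 (log2 -1.42), on the lower side, and COL27A1 (log2 0.81), the member that was higher. Folds of the same animal differed widely in these genes: COL1A1 stood at 103 CPM in the left and 37 CPM in the right fold of Col1 animal 1, at 30 and 31 CPM in animal 2, and at 102 and 38.9 CPM in animal 3. The injury_only folds ranged from 80.6 to 247 CPM, so single folds of both groups overlapped where the sums did not. All 6 Col1 folds lay below the batch D fold in COL1A1 (104 CPM), COL1A2 (176 CPM) and COL3A1 (267 CPM).

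The median log2 fold change of the fibrillar list was -1.03, beside 0.00 over all genes tested. It was -0.67 against the batch D fold and -1.37 with the muscle level as a covariate. Fibroblast transcripts also took a smaller mean share of the reads in Col1, 0.165 ± 0.0514% against 0.233 ± 0.0588% (SD, n = 3 animals), with overlapping animals. COL1A2 is a member of the fibroblast list too, so this share is not separate from the fibrillar result. In bulk tissue, fewer cells of a type and less RNA per cell cannot be told apart, here and for each list that follows. No member of the fibrillar list passed edgeR or DESeq2. In the uninjured control animals, all of batch C, this list took 0.0795 ± 0.0308% of the gene reads. It took 0.0691 ± 0.0178% in injury_only and 0.0332 ± 0.0126% in Col1 (SD, n = 3 animals each). The Col1 mean thus lay further from control than the injury_only mean did.

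**Figure D2:**
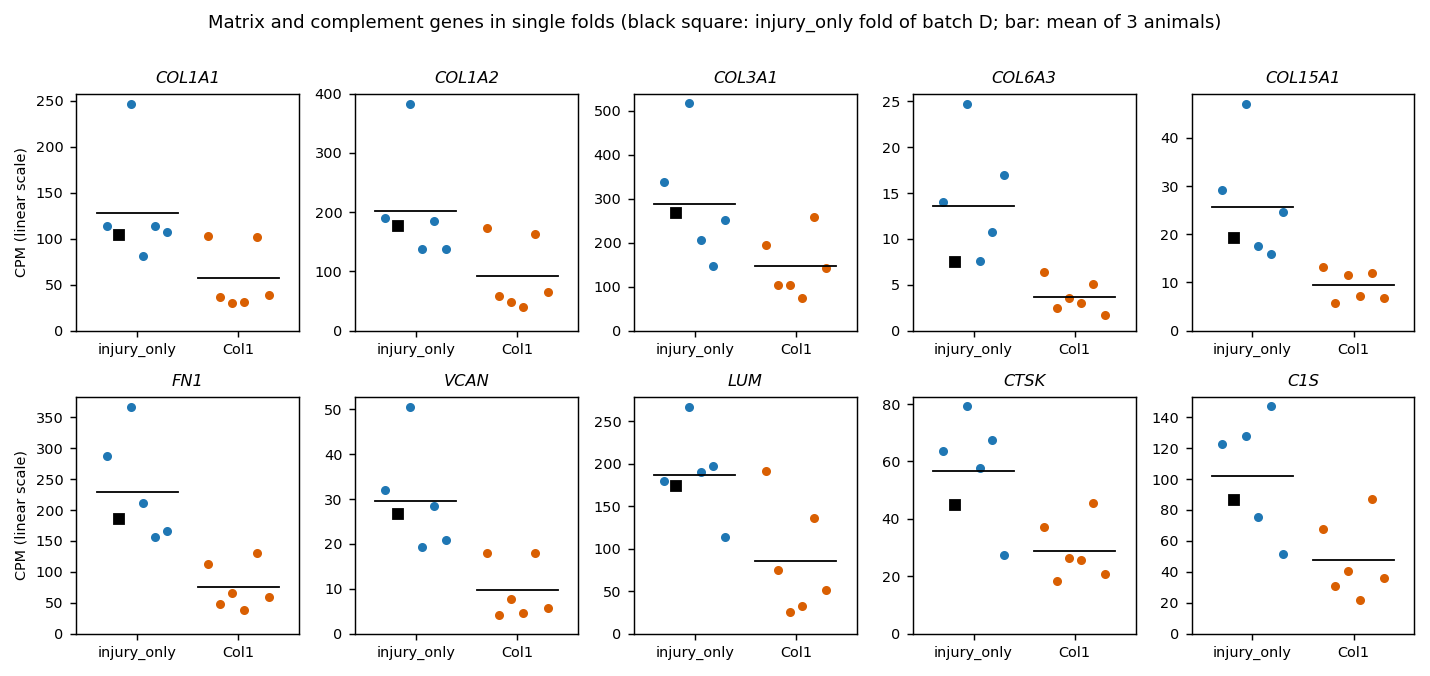
CPM (linear axes from 0) of 10 matrix and complement genes in the 6 injury_only and 6 Col1 folds; points are single folds, bars are means over 3 animals of the mean of both folds, and the black square is the injury_only fold of batch D. Col1 folds lie mostly below injury_only folds, and in COL1A1, COL1A2, COL3A1, COL6A3, COL15A1, FN1 and VCAN all 6 lie below the black square.

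Collagens that form networks or sit on fibrils lay on both sides. Of 30 tested, 11 (36.7%) did not overlap on the lower side and 5 (16.7%) on the higher side. The lower ones included chains of the microfibrillar type VI collagen, COL6A1 (log2 -1.01), COL6A2 (-1.08), COL6A3 (-1.97) and COL6A6 (-0.98), and the vascular and matrix-bridging COL4A1 (-0.63), COL4A2 (-0.61), COL14A1 (-1.01) and COL15A1 (-1.51). COL6A3 stood at 3.82, 3.29 and 3.32 CPM in Col1 and at 10.8, 16.2 and 13.9 CPM in injury_only (SE 0.45, adjusted p = 0.27 in edgeR and 0.0043 in DESeq2). COL15A1 stood at 8.21, 9.4 and 9.35 CPM against 24.2, 32.4 and 20.4 CPM, and all 6 Col1 folds of both genes lay below the batch D fold. The remaining lower ones were COL22A1, COL28A1 and COL9A3. The higher ones were COL4A3 (0.98), COL4A4 (0.79) and COL4A5 (0.58), which together make a basement membrane network of epithelia, COL17A1 (0.49), the transmembrane collagen of hemidesmosomes, and COL8A1 (0.55). COL19A1, by contrast, stood at 6.48 and 4.58 CPM in injury_only animals 2 and 3 and at 0.174 CPM in animal 1, within the Col1 range of 0.0405 to 0.361 CPM. The list's median was -0.55, -0.05 against the batch D fold and 0.06 with batch as a term. In left folds alone 2 members were lower without overlap, and in right folds alone 8.

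Genes for folding, trimming and cross-linking collagen were close to the background, with 4 of 27 (14.8%) lower, 2 (7.41%) higher and a median of -0.12. P4HA1, a subunit of the prolyl hydroxylase that stabilises the triple helix, stood at 26.9, 23.4 and 23.9 CPM against 37.7, 34.9 and 34.5 CPM (log2 -0.53, adjusted p = 0.27). MIA3, a cargo receptor that loads procollagen for export, stood at log2 -0.54, PCOLCE, an enhancer of C-propeptide trimming, at -0.52, and LOX, the cross-linking lysyl oxidase, at -0.86 (4.8, 2.91 and 8.54 CPM against 10.1, 10.1 and 9.34 CPM, adjusted p = 0.34). P3H3, a collagen prolyl 3-hydroxylase, was on the higher side at log2 0.60, with COLGALT1 at 0.33.

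Genes of the degradation list lay on both sides. Of 30 tested, 5 (16.7%) were lower and 4 (13.3%) higher without overlap, with a median of -0.08. The lysosomal cathepsins CTSK, given above, and CTSS (log2 -1.27) and the collagen uptake receptor MRC2 (-0.68) were on the lower side, with ADAM9 and ADAMTS4. PLAU, the urokinase that activates plasminogen, stood at 45, 29.1 and 60 CPM in Col1 and at 20.3, 21.4 and 25.6 CPM in injury_only (log2 0.99, SE 0.23, adjusted p = 0.27 in edgeR and 0.0089 in DESeq2). MMP15, a membrane-bound metalloproteinase, stood at 153, 122 and 242 CPM against 81.1, 103 and 86 CPM (log2 0.94, adjusted p = 0.27 in edgeR and 0.018 in DESeq2), and PLAT (0.76) and ADAMTS9 (0.81) were also higher. In PLAU and MMP15 all 6 Col1 folds lay above the batch D fold. The collagenase MMP1 (log2 -0.19), the gelatinase MMP2 (-1) and MMP14 (0.26) overlapped between the groups, MMP2 at 28.3, 20.9 and 46.9 CPM against 66.1, 87 and 38.6 CPM.

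Among 12 protease inhibitors of the matrix 2 (16.7%) were lower and 2 (16.7%) higher. TIMP4 stood at log2 -1.55 and SERPINE2 at -0.98, CST3 and CSTB at 0.63 and 0.55. CST3, the secreted cysteine protease inhibitor cystatin C, stood at 98.7, 158 and 123 CPM against 77.3, 84.5 and 83.9 CPM (adjusted p = 0.31). TIMP3 stood at 215, 76.7 and 195 CPM against 72.3, 98.3 and 61.1 CPM (log2 1.07, adjusted p = 0.27), with Col1 animal 2 inside the injury_only range, and TIMP1 at log2 -0.10. Of 12 collagen receptors 3 (25.0%) were lower, ITGA11 (-1.60), ITGB1 (-0.40) and MRC2, and 3 higher, CD44 (0.52), DDR1 (0.27) and ADGRG1 (0.37). ITGA11, the fibroblast integrin subunit for fibrillar collagen, stood at 1.15, 0.818 and 0.931 CPM against 2, 4.88 and 1.97 CPM. DDR1, the discoidin receptor of epithelium, was thus on the higher side, and DDR2, that of fibroblasts, stood at log2 -0.64 with overlapping animals and an adjusted p of 0.47.

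Fibronectin did not overlap even between single folds. FN1, on which fibroblasts assemble new collagen, stood at 70.7, 52.2 and 93.7 CPM in Col1 and at 237, 289 and 158 CPM in injury_only (log2 -1.66, SE 0.35, adjusted p = 0.27 in edgeR and 0.0016 in DESeq2). Its highest Col1 fold, at 131 CPM, lay below the lowest injury_only fold, at 156 CPM, and the batch D fold stood at 186 CPM. In uninjured control animals FN1 stood higher still, at 452 ± 86 CPM (SD, n = 3 animals). THBS4 stood there at 3.1 ± 0.975 CPM, below its injury_only mean of 4.65 ± 2.58 CPM. Of the 26 fibronectin and matricellular genes 7 (26.9%) were lower without overlap and none higher, beside 10.8% and 12.1%: FN1, HMCN1 (-0.55), HMCN2, SPARCL1 (-0.62), THBS4, TNC (-1.22) and TNN (-1.58). Tenascin C, TNC, is a glycoprotein of wounds and of stretched tissue. POSTN, a scar-associated matricellular protein, stood at 41.6, 33.3 and 67.2 CPM against 79.6, 90.9 and 54.7 CPM (log2 -0.67, adjusted p = 0.33), overlapping in 1 animal of each side. The list's median was -0.57 and -0.30 against the batch D fold.

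Genes for hyaluronan and the large proteoglycans that bind it lay on both sides. VCAN, the large hyaluronan-binding proteoglycan versican, stood at 8.93, 6.18 and 11.7 CPM against 29.4, 34.9 and 23.6 CPM (log2 -1.72, SE 0.41, adjusted p = 0.27 in edgeR and 0.0068 in DESeq2), with all 6 Col1 folds below the batch D fold at 26.7 CPM. TNFAIP6, which links hyaluronan to other proteins in inflamed tissue, stood at 0.511, 0.457 and 0.526 CPM against 1.57, 2.78 and 1.41 CPM (log2 -1.94). Of 15 hyaluronan and large proteoglycan genes 4 (26.7%) were lower, these 2 with ACAN and the hyaluronan synthase HAS2, and 3 (20.0%) higher, the hyaluronidase HYAL2 (0.61), the receptor CD44 and PRG4 (1.75). HAS2 stood at 0.87, 1.08 and 1.11 CPM against 1.12, 2.31 and 1.43 CPM (log2 -0.67, adjusted p = 0.52) and at 0.846 CPM in the batch D fold, within the range of the Col1 folds, 0.264 to 2.02 CPM. The list's median of -0.21 was 0.06 against the batch D fold.

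Of 14 small leucine-rich proteoglycans, which space collagen fibrils, 12 had a log2 fold change below 0, but only LUM (7.14%) did not overlap, at 115, 29.3 and 92.4 CPM against 178, 228 and 147 CPM (log2 -1.23, adjusted p = 0.29). Decorin, DCN, stood at 252, 123 and 361 CPM against 356, 410 and 328 CPM (log2 -0.57, adjusted p = 0.44). The list's median was -0.59 and -0.64 against the batch D fold. The list took 0.162 to 0.205% of the gene reads in control animals, 0.0866 to 0.129% in injury_only and 0.0367 to 0.0995% in Col1. Of 18 elastic fibre genes 2 (11.1%) were lower and none higher, with a median of -0.33. ELN, elastin, stood at 33.2, 20.2 and 59.2 CPM against 78.1, 61.7 and 62 CPM (log2 -0.84, adjusted p = 0.34), and FBLN5, which helps to assemble it, at 8.11, 11.4 and 10.8 CPM against 18.3, 29 and 13 CPM (log2 -0.99, adjusted p = 0.27 in edgeR and 0.034 in DESeq2).

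Fibroblast identity genes lay on the lower side without a uniform pattern. Of 24 tested, 6 (25.0%) were lower and 1 (4.17%) higher without overlap, with 2 lower in left and 8 in right folds alone, and the median was -0.54, -0.11 against the batch D fold. Besides COL1A2 and LUM these were PI16, a marker of adventitial fibroblasts, the transcription factors TCF21 (-1.94) and PRRX1 (-0.95), and SFRP2 (-0.77). PI16 stood at 18.5, 16.7 and 15 CPM against 41.8, 119 and 34.6 CPM (log2 -1.96, adjusted p = 0.27), and the batch D fold at 24.5 CPM lay within the range of the Col1 folds, 8.64 to 24.9 CPM. The transcription factor OSR2 was higher, at 105, 114 and 137 CPM against 75.8, 76.2 and 88.9 CPM (log2 0.56). Myofibroblasts are the contractile fibroblasts of scars, marked by smooth muscle actin, ACTA2, which they share with vessel walls. ACTA2 stood at 83.9, 271 and 48.3 CPM in Col1 and at 101, 107 and 136 CPM in injury_only (log2 0.23, SE 0.56, adjusted p = 0.88). Col1 animal 2 was high in both folds, at 290 and 250 CPM, and without it the log2 fold change was -0.79. Of 20 myofibroblast and smooth muscle genes none was lower and 1 (5%), CALD1 at log2 0.40, was higher. The median was -0.06, and 0.56 against the batch D fold, without which 6 genes were lower. The list mixes kinds, with 10 members above 0 and 10 below. Among those below were DES (-1.24), CASQ2 (-1.54), TPM1 (-0.70) and TPM2 (-0.88), which skeletal muscle also makes. TAGLN (0.66), MYH11 (0.37) and ACTG2 (1.17) lay above 0. With the muscle level as a covariate CASQ2 went to 0.04 and ACTA2 to 0.97. The median is thus no measure of myofibroblasts alone.

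The TGF-beta pathway, the main inducer of scar matrix, had list medians near 0. Of 38 ligands, receptors and SMADs 4 (10.5%) were lower, BMPR2 (-0.55), GDF10 (-1.30), SMAD4 (-0.18) and SMAD5 (-0.19), and 1 (2.63%) higher, TGFBR2 (0.22), with a median of -0.02. TGFB1 stood at 11.8, 6.61 and 13.3 CPM against 7.35, 12.3 and 8.22 CPM (log2 0.19, adjusted p = 0.78). Of 16 response genes 2 (12.5%) were lower, COL4A1 and TSC22D1, and 1 (6.25%) higher, CDKN2B, with a median of 0.02 that was 0.37 against the batch D fold. ADAM19, a membrane metalloprotease, stood at 2.38, 4.02 and 1.5 CPM against 2.13, 9.31 and 9.25 CPM (log2 -1.39, adjusted p = 0.29), with injury_only animal 1 among the Col1 animals. TGFBI stood at 24.1, 19.7 and 30.4 CPM against 38.6, 53.1 and 29.3 CPM (log2 -0.70, adjusted p = 0.29).

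Complement had the lowest median of the immune lists. Of 16 genes tested, 6 (37.5%) were lower without overlap and none higher, and 14 had a log2 fold change below 0. They were the proteases of the classical pathway C1R (-1.09) and C1S (-1.13), their inhibitor SERPING1 (-1.02), the central component C3 (-1.16), C7 (-1.60) of the membrane attack complex and the C3b-cleaving protease CFI (-1.09). Activators and inhibitors of the cascade thus lay on the same side. C1S stood at 43.3, 31.5 and 60.9 CPM in Col1 and at 105, 102 and 91.5 CPM in injury_only (SE 0.24, adjusted p = 0.27 in edgeR and 0.0037 in DESeq2). SERPING1 stood at 32.6, 33.3 and 39.3 CPM against 78.9, 78.9 and 55.6 CPM, and C1R at 51.1, 44.3 and 81.3 CPM against 156, 136 and 84.7 CPM. DESeq2 called C1R, C1S, SERPING1, C3 and C7, and 4 members were lower without overlap in left and 4 in right folds alone. The list took 0.0494 to 0.0569% of the gene reads in the Col1 animals and 0.0744 to 0.116% in injury_only, with no overlap. In the control animals the list took 0.0659 to 0.0788%, above Col1 and overlapping injury_only. Its median was -0.94, and -0.53 against the batch D fold.

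Markers of immune cells were nearer to the background. Of 25 macrophage genes 1 (4%) was lower and 2 (8%) higher, with a median of -0.24, and CD68 stood at 57.4, 43.9 and 45.5 CPM against 53.4, 37.2 and 54.6 CPM (log2 0.02, adjusted p = 0.99). CTSS, a cathepsin of antigen-presenting cells, stood at 28, 23.9 and 14 CPM against 57, 46.6 and 54.9 CPM (adjusted p = 0.27 in edgeR and 0.023 in DESeq2). CD80, a co-stimulatory ligand, stood at 28.5, 17.8 and 23.5 CPM against 10.5, 14 and 10.2 CPM (log2 1.01), and NOS2, the inducible nitric oxide synthase that epithelium also makes, at 120, 29.1 and 108 CPM against 11.8, 32 and 29.4 CPM (log2 1.82, adjusted p = 0.27). Foreign-body giant cells share genes with osteoclasts. Of 10 genes tied to giant cells or osteoclasts 2 (20.0%) were lower, CTSK and the decoy receptor TNFRSF11B (-1.25), and none higher. CTSK stood at 60.2 ± 9.23 CPM in uninjured control animals and at 55.5 ± 12.3 CPM in injury_only, so it does not mark giant cells alone. ATP6V0D2 stood at 4.84, 18.4 and 2.79 CPM against 6.75, 2.59 and 3.31 CPM.

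None of 8 neutrophil and mast cell genes was beyond overlap. Of 15 T and NK cell genes 3 (20.0%) were lower, CD2, CD247 and LCK, and none higher. LCK, the kinase next to the T cell receptor, stood at 1.89, 1.59 and 1.17 CPM against 2.91, 2.55 and 2.09 CPM (log2 -0.70, adjusted p = 0.30). Of 19 B and plasma cell genes CR2 and POU2AF1 were lower (10.5%) and SDC1 was higher (5.26%). POU2AF1 stood at 0.643, 1.92 and 1.6 CPM against 6.65, 4.83 and 2.46 CPM (log2 -1.74). SDC1, a syndecan that marks plasma cells but is abundant in stratified epithelium, stood at 1040, 712 and 1390 CPM against 450, 555 and 485 CPM (log2 1.08, SE 0.33, adjusted p = 0.27). Of 12 antigen presentation genes 3 (25.0%) were lower, CTSS, the immunoproteasome subunit PSMB10 (-0.50) and TAPBP (-0.33), and 1 higher, the class II regulator RFX5 (0.51).

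Of 29 cytokines and chemokines 3 (10.3%) were on each side. The lower ones were IL11 (-2.96), a fibroblast cytokine, the lymphatic chemokine CCL21 (-1.87) and IL33 (-1.08), and the higher ones IL1A (2.15), IL18 (0.34) and CX3CL1 (0.42). IL11 was scarce, at 0.0189, 0.0962 and 0.0809 CPM against 0.213, 0.731 and 0.61 CPM. All 18 interferon response genes had a log2 fold change below 0, with a median of -0.62, yet none was beyond overlap. Injury_only animal 1 was the high one in this list: RIGI, a cytosolic RNA sensor, stood at 49.3, 32.9 and 32.8 CPM in Col1 and at 110, 33.6 and 48.9 CPM in injury_only. The batch D fold is a fold of that animal, and the list's median against it was -1.53. RIGI stood at 123 CPM in that fold and at 95.4 CPM in the batch C fold of the same animal. The parts of animal and batch in this were not tested.

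**Figure D3:**
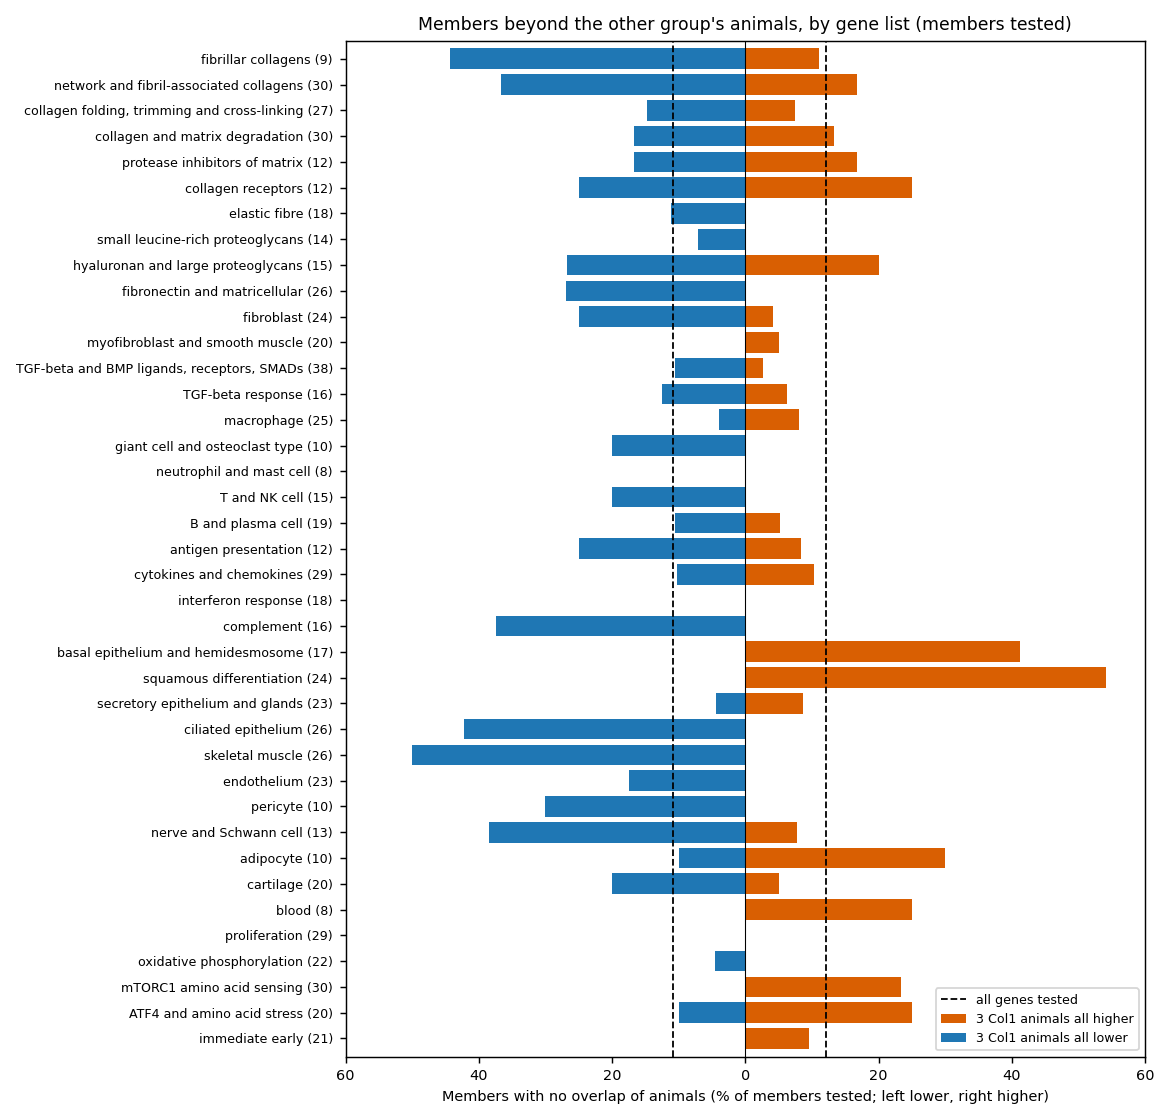
Share of the tested members of each of 39 gene lists (number tested in parentheses) whose 3 Col1 animals all lie below (blue, to the left) or above (orange, to the right) the 3 injury_only animals; dashed lines are the shares over all genes tested, 10.8% and 12.1%. The squamous list reaches 54.2% on the higher side, and the skeletal muscle, fibrillar collagen, nerve, ciliated and complement lists reach 37.5 to 50% on the lower side.

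Of the 39 lists, those of squamous and basal epithelium had the largest shares of members on the higher side without overlap. Of 24 squamous differentiation genes 13 (54.2%) were higher without overlap and none lower, and 23 had a log2 fold change above 0. Among them were the suprabasal keratins KRT4 (0.52) and KRT13 (0.72) of lining mucosa, the wound keratin KRT16 (1.86), KRT80 (1.19), the cornified envelope proteins CNFN (1.17), CSTA (1.79), SCEL (0.79) and SPRR3 (0.87), and GRHL3 (0.91), a transcription factor of barrier formation. KRT80 stood at 185, 156 and 243 CPM in Col1 and at 72.4, 88.8 and 94.1 CPM in injury_only (SE 0.29, adjusted p = 0.27 in edgeR and 0.012 in DESeq2). MAL, a membrane proteolipid of differentiated mucosa, stood at 1390, 1040 and 1990 CPM against 743, 702 and 853 CPM (log2 0.94, adjusted p = 0.28). The whole list took 3.14 to 5.01% of the gene reads in Col1 and 2.36 to 2.68% in injury_only, and 2.97 to 5.33% and 3.11 to 4.71% in VFLP_man and VFLP_au.

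Of 17 basal cell and hemidesmosome genes 7 (41.2%) were higher and none lower: COL17A1, ITGA3 (0.48), ITGA6 (0.53), KRT15 (0.57), LAMB3 (0.81), NGFR (0.74) and DLK2. DLK2, a relative of the Notch-pathway protein DLK1, stood at 30.9, 32.6 and 45.6 CPM against 15.9, 23.2 and 19.9 CPM (log2 0.89, SE 0.21, adjusted p = 0.27 in edgeR and 0.01 in DESeq2). LAMB3, a chain of the laminin that anchors basal cells, stood at 104, 111 and 152 CPM against 70.4, 66.3 and 72.8 CPM. The median of the squamous list was 0.73, 0.48 against the batch D fold, and 0.20 with the muscle level as a covariate. That of the basal list was 0.39, 0.25 and 0.07. In Col1 the muscle share was lower and the squamous share higher than in injury_only, without overlap of animals. The muscle share was 0.069 to 0.486% in VFLP_man and 0.618 to 1.41% in VFLP_au, the latter overlapping injury_only. Both groups had squamous shares above those of injury_only, as given above. How far muscle content bears on the squamous difference was not tested further. In left folds alone 5 squamous and 3 basal genes were beyond overlap on the higher side, and in right folds alone 5 and 4.

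The other epithelial kinds did not follow. Of 23 secretory and gland genes 2 (8.70%) were higher, AQP5 and MUC1 (0.80), and 1 (4.35%) lower, BPIFB1 (-2.50), with a median of -0.01. AQP5, a water channel of glands and surface mucosa, stood at 1970, 2130 and 2710 CPM against 789, 1250 and 965 CPM (log2 1.18, SE 0.31, adjusted p = 0.27 in edgeR and 0.014 in DESeq2). BPIFB2, an airway secretory protein, had 0 reads in the 6 Col1 libraries and 406 in injury_only. The injury_only animals stood at 0, 6.93 and 2.63 CPM and the control mean at 0, so the groups overlapped. With 3 counts over the group in place of 0, the summed reads were at least 143-fold apart. That bound covers counting and not the spread of animals. All 26 ciliated cell genes had a log2 fold change below 0, 11 (42.3%) without overlap, and the median was -2.34, with 1 beyond overlap in left and 1 in right folds alone. CFAP43, a component of motile cilia, stood at 4.8, 8.3 and 17.7 CPM in Col1 and at 132, 56.5 and 33.8 CPM in injury_only (log2 -2.85, SE 1.12, adjusted p = 0.31), and DEUP1, which builds the basal bodies of multiciliated cells, at 0.17, 0.144 and 0.445 CPM against 9.64, 2.9 and 1.24 CPM (log2 -4.16, adjusted p = 0.27 in edgeR and 0.0089 in DESeq2). Ciliated cells belong to the airway around the fold and not to its squamous edge. Their share of reads varied within every group, from 0.0045 to 0.0415% in Col1, 0.0406 to 0.197% in injury_only and 0.0146 to 0.181% in VFLP_man. Between folds of the same injury_only animal, CFAP43 stood at 76.4 CPM in the left and 2.13 CPM in the right fold of animal 3.

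Most muscle, nerve and vessel genes lay on the lower side, but against the batch D fold the list medians were near or above 0. All 26 skeletal muscle genes had a log2 fold change below 0, 13 (50%) without overlap, and the median was -1.38, but against the batch D fold it was 1.16. Without that fold 22 genes did not overlap, and in left or right folds alone 3. MYH4, a fast myosin heavy chain, stood at 12.1, 15 and 12.9 CPM against 20.9, 222 and 1450 CPM, animal 1 being close to Col1 (log2 -5.41, SE 1.54, adjusted p = 0.27). Of 13 nerve and Schwann cell genes 5 (38.5%) were lower, NCAM1, CDH19, L1CAM, GFRA3 and PMP22, and NGFR, which basal cells also make, was higher. CDH19, a cadherin of Schwann cells, stood at 0.454, 0.289 and 0.223 CPM against 0.562, 2.12 and 1.13 CPM (log2 -1.97, adjusted p = 0.27), and at 0.385 CPM in the batch D fold. The nerve median of -0.78 was -0.02 against that fold and -0.05 with the muscle covariate.

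Of 23 endothelial genes 4 (17.4%) were lower, VWF (-1.48) and KDR (-0.80) of vessels and PROX1 (-1.71) and FLT4 (-1.21) of lymphatics, with a median of -0.44 that was 0.16 against the batch D fold. VWF stood at 65.5, 46.6 and 36.3 CPM against 100, 209 and 105 CPM, and 63.9 CPM in the batch D fold. Of 10 pericyte genes 3 (30.0%) were lower, among them CSPG4 at 1.21, 2.38 and 2.02 CPM against 3.82, 5.26 and 6.36 CPM (log2 -1.46, adjusted p = 0.27 in edgeR and 0.013 in DESeq2). Of 10 adipocyte genes 1 (10%) was lower, LPL, and 3 (30.0%) higher, DGAT2, LIPE and the lipase PNPLA2, and of 20 cartilage genes 4 (20.0%) were lower and 1 (5%) higher. Blood had the highest median of the 39 lists. Of 8 blood genes 7 had a log2 fold change above 0 and EPB42 and HEMGN (25.0%) did not overlap, with a median of 1.37, and 1.89 against the batch D fold. HBA, an alpha globin, stood at 180, 522 and 354 CPM in Col1 and at 38.6, 189 and 112 CPM in injury_only (log2 1.64, adjusted p = 0.29), beside 28.3 ± 9.98 CPM in VFLP_man and 69.8 ± 13.3 CPM in VFLP_au.

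**Figure D4:**
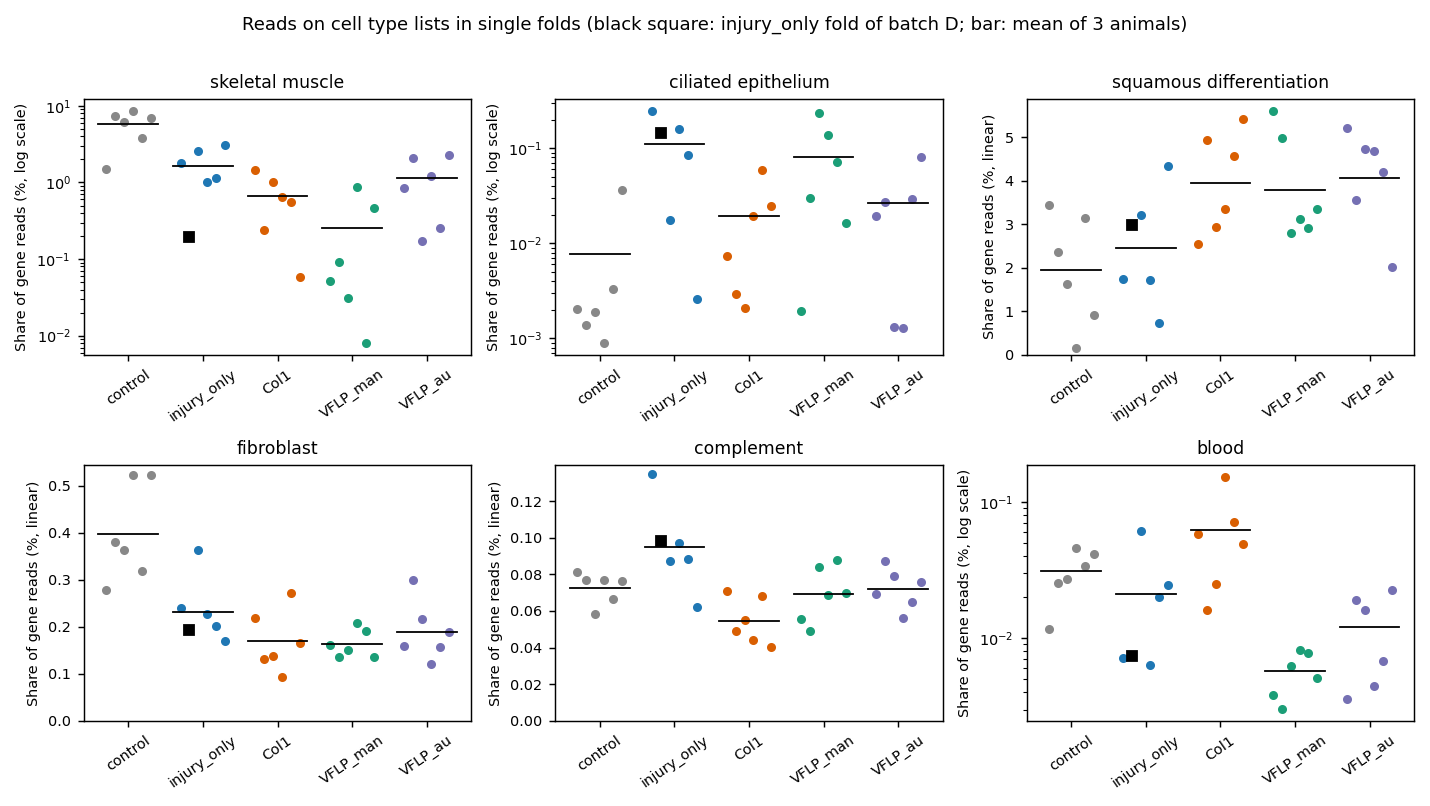
Share of gene reads (%) on 6 gene lists in every fold of the 5 groups, with log axes for skeletal muscle, ciliated epithelium and blood and linear axes from 0 for the others; points are single folds, bars are means over 3 animals of the mean of both folds, and the black square is the injury_only fold of batch D. The black square is the lowest injury_only fold for skeletal muscle and lies among the other injury_only folds for the squamous, fibroblast and complement lists.

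Beyond cell types, 7 of 30 genes of amino acid sensing by mTORC1 (23.3%) were higher without overlap and none lower, although the median was only 0.04. In right folds alone 1 was higher (background 8.52%), in left folds alone 4 were higher and 2 lower, and without the batch D fold 6 were higher and 2 lower. They were CASTOR1, KPTN (0.44) and KICS2 (0.32), both of the latter being parts of the KICSTOR scaffold, and RRAGA (0.16), RRAGC (0.28), LAMTOR2 (0.23) and LAMTOR5 (0.15), which hold mTORC1 at the lysosome. KICS2 stood at 58.3, 45.5 and 53.4 CPM against 42.4, 39.3 and 43.8 CPM (adjusted p = 0.34). Of 20 genes of the ATF4 response to amino acid shortage 5 (25.0%) were higher, ATF4 itself, CEBPB (0.30), DDIT3 (0.42), PSAT1 (0.62) and PSPH (0.47), and 2 (10%) lower, SLC7A11 (-1.02) and VLDLR (-1.27). In left folds alone 2 were higher and 2 lower, and in right folds alone 4 were higher. The median of 0.24, with 8 of the 20 below 0, was -0.01 with the muscle covariate. ATF4 stood at 40.6, 42 and 48.6 CPM against 27.7, 27.8 and 32.3 CPM (log2 0.58, SE 0.14, adjusted p = 0.27 in edgeR and 0.013 in DESeq2). It stood at 38.2 ± 3.98 CPM in VFLP_man and 48.8 ± 7.07 CPM in VFLP_au. Of 21 immediate early genes KLF4 and KLF6 (9.52%) were higher, KLF4 at 280, 243 and 363 CPM against 124, 190 and 176 CPM (log2 0.85). None of 29 proliferation genes and 1 of 22 oxidative phosphorylation genes, SDHD, lay beyond overlap, the latter on the lower side (11 without the batch D fold) at 65.7, 77.5 and 54.7 CPM against 78.3, 86 and 96.5 CPM.

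With the muscle level as a covariate, several medians moved. The adipocyte median went from -0.57 to 0.19, the myofibroblast and smooth muscle median from -0.06 to 0.32 and the secretory median from -0.01 to 0.18, so that these changed sign. Medians nearer to 0 were those of complement (-0.94 to -0.59), ciliated cells (-2.34 to -1.60), endothelium (-0.44 to -0.15), B and plasma cells (-0.50 to -0.10), macrophages (-0.24 to -0.13), giant cells (-0.33 to -0.15) and oxidative phosphorylation (-0.20 to -0.03). Medians further from 0 were those of blood (1.37 to 2.65), proliferation (-0.04 to -0.83), neutrophils and mast cells (-0.49 to -1.15), interferon response (-0.62 to -0.99), T and NK cells (-0.21 to -0.32), pericytes (-0.27 to -0.43) and matrix degradation (-0.08 to -0.32). COL1A1 went from -1.25 to -2.22 and NCAM1 from -2.05 to -1.17. EdgeR called 0 genes in this fit, with 1098 at an unadjusted p under 0.05.

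The comparison with the other injected groups lies within batch D and shares the Col1 animals with the comparison above. Col1 differed from VFLP_man in 1 of 17368 genes (0.00576%) and from VFLP_au in 1 (0.00576%) by edgeR. LOC127482684 stood at 3.03 ± 0.975 CPM in Col1 and at 0.0582 ± 0.0227 CPM in VFLP_man (log2 5.64, adjusted p = 0.025), and LOC100353144 at 0.81 ± 0.145 CPM in Col1 and at 8.34 ± 0.985 CPM in VFLP_au (log2 -3.34, adjusted p = 0.045). Both genes also differed widely between animals of groups without injection. LOC127482684 stood at 0.0207, 13.5 and 10.5 CPM in control and at 0.291, 3.66 and 5.4 CPM in injury_only. LOC100353144 stood at 0.91, 0.959 and 5.57 CPM in control and at 3.32, 2.83 and 10.8 CPM in injury_only. The cause was not tested. DESeq2 called 428 and 53 genes. With single animals left out, LOC127482684 was called without Col1 animal 1 (adjusted p = 0.03) and not without any of the other 5 (0.069 to 0.17), and LOC100353144 was not called without any of the 6 (0.08 to 0.45). Other genes were called in some of these fits, such as RPL34 without VFLP_man animal 1. Both calls were also lost with the replicate number as a block (adjusted p = 0.20 and 0.28), with all 15 animals in the fit (0.27 and 0.99) and in right folds alone (0.87 and 0.43), and that of LOC100353144 in left folds alone (0.054). None of the 117 genes of the named set that were tested passed against either group in edgeR. COL1A1 stood at 53.2 ± 20.3 CPM in Col1, 66.7 ± 46.6 in VFLP_man and 76.3 ± 47.7 in VFLP_au, and FN1 at 72.2 ± 20.8, 103 ± 48.2 and 120 ± 30.2 CPM (SD, n = 3 animals each). Against VFLP_man the log2 fold change was -0.32 for COL1A1 and -0.51 for FN1, and against VFLP_au -0.50 and -0.72. Beside these stand the same genes' log2 fold changes from injury_only, -1.25 and -1.66. The comparisons share the Col1 animals, and the difference between them was not tested.

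List medians against the other injected groups were small for some lists and large for others. The median of the fibrillar collagens was -0.34 against VFLP_man and -0.49 against VFLP_au, that of complement -0.17 and -0.21, and that of the squamous list 0.28 and 0.03. The blood list had medians of 3.48 and 2.48, the neutrophil and mast cell list -1.24 and -0.84, and the T and NK cell list -0.77 and -0.74. Larger against VFLP_man than against VFLP_au were the medians of the ciliated list, -1.89 and -0.47, the myofibroblast and smooth muscle list, 1.53 and 0.12, skeletal muscle, 1.5 and -0.63, and cartilage, 1.14 and 0.29. HBA had the smallest unadjusted p of the named genes against VFLP_man (log2 3.64, adjusted p = 0.20). ACTA2 stood at 134 ± 119 CPM in Col1, 21.1 ± 14.6 in VFLP_man and 32.2 ± 9.26 in VFLP_au (adjusted p = 0.35 and 0.98), the spread in Col1 resting on animal 2. Of 18 interferon response genes 17 had a log2 fold change below 0 against VFLP_man and 17 against VFLP_au, with medians of -0.68 and -1.24, and 0 passed edgeR against either. At an unadjusted p under 0.05 stood 2 of the 18 against VFLP_man and 14 against VFLP_au, beside 1843 and 809 of the 17368 genes tested.

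**Figure D5:**
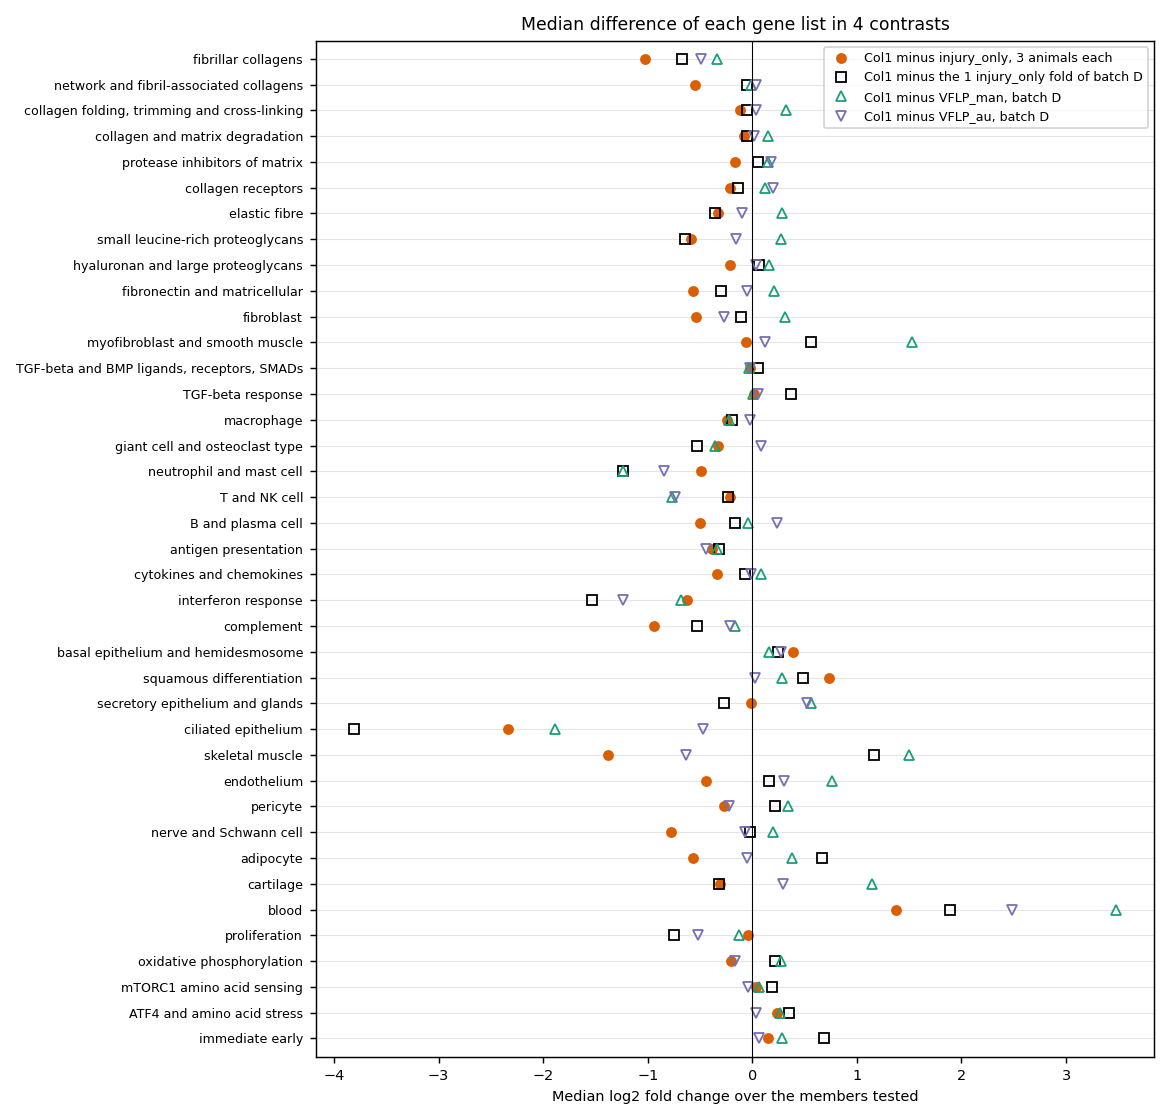
Median log2 fold change over the tested members of 39 gene lists for Col1 minus injury_only (filled circles, 3 animals each), Col1 minus the injury_only fold of batch D (squares, 1 library on that side), and Col1 minus VFLP_man or VFLP_au (triangles up and down, 3 animals each). Complement, fibrillar collagens and the squamous list keep their side in all 4, while skeletal muscle runs from -1.38 to 1.5.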

How the data were processed

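RNA sequencing was done on both folds of each rabbit with the KAPA mRNA HyperPrep kit per the labels. The authors deposited raw read counts per gene for each library, made with STAR 2.7.10b per the submitters' processing notes. Neither build nor annotation is named: not given in the sources used here. The files hold 3 columns of counts, unstranded and for either strand. The second-read strand, with at least 94.9% of the stranded reads, was taken. The 4 entries that name no gene, 25.7 to 36.6% of the reads of the 12 libraries, were left out. Names were matched to RefSeq (mOryCun1.1), which gave 118 of 120 named genes. No sequences are printed, since none were in the sources used here.

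Counts of both folds were added per animal. R 4.3.3 with edgeR 4.0.16 was used (quasi-likelihood F test, TMM factors, filterByExpr at a minimum count of 10) on 15 animals without a batch term, and on the 9 injected animals for Col1 against VFLP_man and VFLP_au. Benjamini-Hochberg adjustment ran over all genes tested, with a threshold of 0.05. SE values are approximate, from the F statistic. The value against the batch D fold is the mean log2 CPM of the 6 Col1 libraries minus that of the fold, with a prior count of 2. CPM values use TMM factors. With 3 against 3 animals the smallest two-sided exact permutation p is 0.1, so single values were not tested that way.

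The gene lists (39, with 725 of 898 genes tested) and the members were chosen with earlier results of these data known. Named genes are the 8 of smallest p in each direction without overlap and with at least 1 CPM, up to 3 members of smallest p of each matrix, fibroblast or immune list and up to 2 of the others, and 22 preset genes, 21 of them tested. Some genes were left out of the lists, whatever their values, and are not reported here. Other genes stand for the counts of their lists. Alternatives were DESeq2 1.42.0, limma 3.58.1 voom with the animal as a block, other normalization, filter, strand, folds, batch, block and muscle covariate settings, and each animal left out. Counts of members without overlap in single folds and without the batch D fold were chosen after seeing the data.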

Additional observations from a re-analysis of the deposited data

Results flagged for a closer look

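In a test of the most distant library of each group of 6, done for 20 shares of reads, the left fold of injury_only animal 2 stood apart for the fibroblast list, at 0.363% of its gene reads, and for the blood list, at 0.0616%. Chance gives about 1 such case in 20 groups if the 6 libraries are independent. Folds of 1 animal are not, so that rate is only a rough guide. The COL1A1 level of 247 CPM named above is of the same fold. Between Col1 and the other injected groups, LOC127482684 differed from VFLP_man by a log2 fold change of 5.64 and LOC100353144 from VFLP_au by -3.34. LOC127482684 did not differ in the same way from injury_only (log2 -0.04, adjusted p = 0.99), and LOC100353144 stood at -2.79 against injury_only (adjusted p = 0.27).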

How the results depend on the processing

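Against injury_only, edgeR called 0 genes with DESeq2 size factors, no filter, unstranded counts, left or right folds alone, the batch term, the muscle covariate and without the batch D fold, with 1098 to 3028 genes at an unadjusted p under 0.05. It called 0 genes without any 1 of the 6 animals. DESeq2 called 380, the 30 libraries as separate samples, which ignores that folds share an animal, 382, and limma voom 3. The fit of only the 2 groups also gave 3 genes, LOC100355114, LOC127492764 and LOC100349704. The cause was not tested. Against VFLP_man the count of 1 became 428 with DESeq2, 458 in left folds alone, 0 in right folds alone and 0 with all 15 animals, and 0 to 2 without each animal. Against VFLP_au it became 53 with DESeq2, 0 in left and 0 in right folds alone and 0 with all 15 animals, and 0 to 1 without each animal.

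Replicate numbers did not pair the animals of Col1 and injury_only (r of same-numbered animals -0.112, -0.0552 and -0.288). With the replicate number as a block, 0 genes were called against injury_only, 0 against VFLP_man and 0 against VFLP_au.

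Of 120 named genes 97 kept their direction under every alternative run for them. With the batch term, which rests on 1 library, these turned (log2 fold changes): CASQ2 1.55, SYNPO2 0.61, GATA2 0.11, CD247 0.03, BPIFB2 0.00, MYH3 0.61, ABCC9 1.01, ADAM19 1.09, FABP4 1.82, CILP 0.11, SDHD 0.12, SDHB 0.23, VLDLR 0.92, HAS2 0.26, MMP14 -0.07 and CD68 -0.18. Against the batch D fold, CASQ2 stood at 1.30, SYNPO2 0.49, GATA2 0.06, BPIFB2 0.00, ABCC9 0.58, ADAM19 0.92, FABP4 1.51, CILP 0.07, BIRC5 -0.08, SDHD 0.12, SDHB 0.24, VLDLR 0.75, HAS2 0.06, ACTA2 0.00, MMP14 -0.10 and CD68 -0.16. With the muscle covariate CASQ2 stood at 0.04, GATA2 0.44, BIRC5 -0.39, MMP14 -0.20 and CD68 -0.53. CD68 stood at 0.00 in DESeq2 and with its size factors and at -0.03 in right folds, ITGA2 at 0.01 in right folds, 0.02 in unstranded counts and 0.03 without the batch D fold, ACTA2 at -0.09 and TGFB1 at -0.04 in left folds, and MMP1 at 0.03 with the replicate block. With single animals left out, CD68 ranged from -0.15 to 0.11, ATP6V0D2 from -0.15 to 1.55, ACTA2 from -0.79 to 0.63, TGFB1 from -0.01 to 0.43, ITGA2 from -0.19 to 0.14, MMP1 from -0.66 to 0.53 and TIMP1 from -0.32 to 0.03. The sign of the median turned in 15 of 39 lists with the batch term, in 9 against the batch D fold and in 5 with the muscle covariate. The fibrillar collagen, complement, squamous, basal and ciliated medians kept their sign in all of these. With 3 animals a group, and batch tied to treatment except for 1 library, batch and collagen injection can hardly be told apart.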

Other observations

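A few genes stood at clearly separate levels in different animals, with both folds of an animal alike. They were picked after their values were seen, from the 6 genes that passed in the fit of only the 2 groups or in limma voom. AGAP3 and STX16, the other two, did not show such levels. LOC100355114 stood at 0.643, 0.601 and 0.486 CPM in the 3 Col1 animals and at 23, 21.5 and 24.9 CPM in the injury_only animals. Of the other groups, VFLP_man held 24.1, 23.8 and 0.511 CPM, VFLP_au 24, 0.538 and 23 CPM, and control 26.4, 28.2 and 58.2 CPM. LOC100349704 stood at 13, 12.4 and 14.3 CPM in Col1 and at 1.11, 0.849 and 0.657 CPM in injury_only, and at 1.2, 1 and 11.3 CPM in control. LOC127492764 stood at 6.41, 7.26 and 7 CPM in Col1 and at 0.446, 0.401 and 0.329 CPM in injury_only. It stood at 12.9, 6.99 and 0.571 CPM in control, at 0.329, 0.301 and 13.5 CPM in VFLP_man and at 13.6, 0.111 and 7.18 CPM in VFLP_au. Its Col1 animals thus lay between a low and a high level. TMEM107, a protein of the ciliary transition zone, stood at 5.92, 6.3 and 9.92 CPM in Col1, at 0.213, 0.0236 and 0 CPM in injury_only, at 0, 0.0452 and 0.782 CPM in VFLP_man, at 7.42, 9.05 and 8.18 CPM in VFLP_au and at 3.7, 0.0457 and 0 CPM in control. In each of the 4 genes at least 1 of the other groups held animals at low and at higher levels. Col1 and injury_only each held animals at similar levels, but the genes were picked for passing between these groups, which favours that. No cause of the levels was tested.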
